A study of Mus musculus with 24 samples.

Results

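The transcriptome of dispersed mouse islet cells in which a tRNA fragment was blocked during palmitate exposure (αGlu PA) was compared with that of control cells that received neither the blocking oligonucleotide nor the fatty acid (Ctr BSA). The comparison takes 12 of the 24 libraries of the experiment, 6 of each group, chosen by their labels alone, and asks across all genes what of the control state the blocked cells still lacked under palmitate. Islets came from wild-type male and female mice aged 12 to 14 weeks and were dispersed into single cells. All cells, controls included, were transfected with 50 pmol of an antisense oligonucleotide (ASO), either a control sequence (Ctr) or one against 5′tRF-Glu(CTC) (αGlu). They were then kept for 48 h with 0.5 mM palmitate bound to bovine serum albumin (PA) or with 0.75% albumin alone (BSA). The remaining groups, Ctr PA and αGlu BSA, also held 6 libraries each, and they are used here only to place values beside those of αGlu PA. Ctr BSA and αGlu PA differ in both the ASO and the fatty acid, so this comparison by itself cannot tell apart what either contributes.

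Palmitate is a saturated fatty acid. β-cells take it up, oxidize it in mitochondria and peroxisomes or store it as triglyceride, and prolonged excess loads the endoplasmic reticulum (ER), lowers insulin production and can end in apoptosis. Mitochondrial entry runs through the carnitine shuttle, and the nuclear receptors of the PPAR family raise its genes when fatty acids bind them. tRNA-derived fragments (tRFs) are short RNAs cut from tRNAs, and ribonucleases such as angiogenin make those that carry the 5′ end. The ASO and the stretch of the fragment that it pairs with are shown because they define the blocked group, and capitals mark the complementary bases, positions 2 to 21 of the fragment.
αGlu ASO: TAACCACTAGACCACCAGGG
target in 5′tRF-Glu(CTC): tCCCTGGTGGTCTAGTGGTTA
The libraries were made from mRNA, so they do not measure the fragment itself, and the degree of blockade was not checked here.

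Library totals ran from 18214719 to 35001979 counts of reads on exons over both groups, with means of 25478517 in Ctr BSA and 27474502 in αGlu PA (two-sided exact permutation p = 0.472). The first 12 libraries (S1 to S12) form batch 1 and the later ones batch 2, and each batch holds 3 per group, but nothing in the labels describes what separated the batches. The study describes its replicates as independent experiments, but the labels do not tie a library to an islet preparation. The insulin genes and the glucagon gene were among the most abundant, with means in Ctr BSA of 63960 CPM (library-size scaled counts) for Ins2, 32340 for Ins1 and 15260 for Gcg. Genes of fibroblasts, acinar cells, macrophages, endothelium and glia were detected too, so the cultures were not endocrine cells alone. In such bulk libraries, fewer cells of a type and less RNA per cell cannot be told apart. Expression values below are CPM scaled by the TMM method, with the SD over 6 libraries, and fold changes carry their SE. A gene is said to have risen or fallen where edgeR's two-sided quasi-likelihood F-test gave a Benjamini-Hochberg adjusted p below 0.05 over all 15916 genes tested.

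αGlu PA cells differed from Ctr BSA cells in 4724 genes, 29.7% of those tested. Of these, 2349 rose (14.8%) and 2375 fell (14.9%). The rises were small and the falls larger. The median log2 fold change was 0.31 among genes that rose and -0.54 among genes that fell, against 0.005 over all genes tested. A change of more than 2-fold was reached by 96 of the genes that rose and 797 of those that fell. With the study's own threshold, an absolute log2 fold change above 1 at an unadjusted p below 0.05, 116 genes were higher (0.729%) and 935 lower (5.87%), 6.6% in all. For 10173 genes (63.9%) the 95% interval of the fold change lay within 1.5-fold in either direction. Ctr PA cells, set against the same 6 Ctr BSA libraries, differed in 4772 genes (30.0%), 2467 higher (15.5%) and 2305 lower (14.5%). Both comparisons share their controls, so below the values of each are given side by side and no agreement between them is tested. The plot of all genes shows the fatty-acid genes among the raised ones, and matrix and glial genes among the lowered ones.

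**Figure D1:**
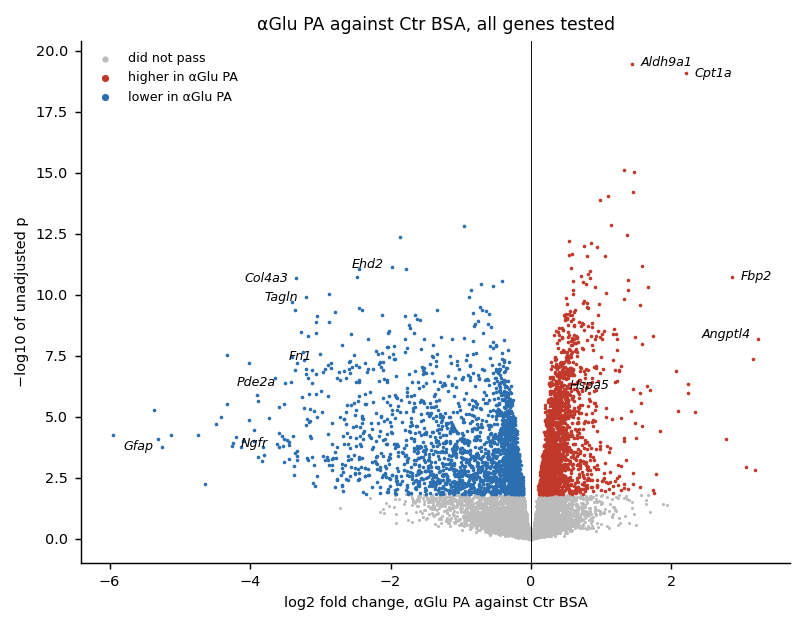
Log2 fold change of αGlu PA against Ctr BSA (x axis) and −log10 of the unadjusted p (y axis) for the 15916 genes tested. Red points are the 2349 genes that rose, blue points the 2375 that fell and grey points those that did not pass an adjusted p of 0.05. The left arm is wider, and reaches a log2 fold change of -5.95 against 3.24 on the right.

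Genes that import fatty acids into mitochondria and oxidize them stayed raised when the fragment was blocked. A list of the carnitine shuttle and mitochondrial β-oxidation held 31 tested genes, of which 16 rose and 1 fell (median log2 fold change 0.34). Cpt1a, the rate-limiting transferase of mitochondrial fatty-acid entry, ran from 30.0 through a median of 35.1 to 43.3 CPM in Ctr BSA, and from 156 through 162 to 186 CPM in αGlu PA. The groups lay far apart (log2 fold change 2.21 ± 0.08, adjusted p = 6.63e-16, a 4.61-fold rise). Slc25a20, the carnitine carrier of the inner membrane, went from 11.4 ± 1.85 to 31.1 ± 2.02 CPM (log2 fold change 1.46 ± 0.09). Acadvl, which starts the breakdown of very long chains, went from 42.0 ± 4.29 to 80.6 ± 6.24 CPM, and Acaa2, the last thiolase step, from 8.24 ± 1.5 to 24.8 ± 3.94 CPM. Neither gene showed overlap between the groups. Not every step moved. Acadm, the medium-chain dehydrogenase, had 18.4 ± 2.33 CPM in Ctr BSA and 18.6 ± 0.94 in αGlu PA, and the short-chain enzyme gene Hadh had 429.9 ± 70.9 and 428.0 ± 55.4 CPM. Bdh1, of ketone body metabolism, was the 1 gene that fell (log2 fold change -0.36 ± 0.11, adjusted p = 0.0146). In Ctr PA 16 genes of the list rose and 1 fell, with a median of 0.32, and Cpt1a stood at 163 ± 6.90 CPM.

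Peroxisomal genes rose by less. Of 40 tested, 22 rose and 1 fell (median log2 fold change 0.20), beside 18 and 1 with a median of 0.18 in Ctr PA. Pxmp4, a peroxisomal membrane protein, went from 9.19 ± 1.63 to 25.5 ± 4.72 CPM (log2 fold change 1.46 ± 0.08, adjusted p = 3.86e-12). Pxmp2, another membrane protein, was the exception and fell (-2.18 ± 0.41), at levels of at most 2.44 CPM in these libraries. On a list of PPAR-linked and lipid droplet genes 17 of 46 rose and 3 fell, namely Fabp5, Acot7 and Gpam. Angptl4, a lipoprotein lipase inhibitor and classical PPAR target, ran from 0.237 through 0.43 to 1.13 CPM in Ctr BSA and from 3.55 through 4.51 to 10.03 CPM in αGlu PA. It had the largest log2 fold change among all genes that rose (3.24 ± 0.37, adjusted p = 6.53e-07). Plin2, the coat protein of lipid droplets, ran from 13.98 through 18.4 to 24.1 CPM in Ctr BSA and from 38.2 through 46.6 to 74.99 CPM in αGlu PA. Its groups did not overlap either (1.38 ± 0.13). Pdk4, which holds pyruvate back from oxidation, went from 16.1 ± 2.71 to 37.1 ± 11.2 CPM, Ucp2, an uncoupling protein, from 152 ± 24.1 to 220 ± 15.8 CPM, and Pparg from 12.99 ± 1.5 to 20.4 ± 1.42 CPM, each without overlap. Fabp5, a fatty-acid carrier also found in macrophages, fell from 12.4 ± 4.19 to 5.25 ± 2.45 CPM. The glucuronidation genes Ugt1a1 (log2 fold change 2.23 ± 0.35) and Ugt1a9 (1.48 ± 0.17) were among 4 of 11 UDP-glucuronosyltransferases that rose, and none fell. Genes of the Ugt1a cluster share exons, so the counting could split reads between them.

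Genes that make fatty acids and sterols rose as well. Of 23 lipogenesis and desaturation genes 10 rose and 2 fell, and of 29 cholesterol genes 16 rose and 1 fell, with medians of 0.26 and 0.25. In Ctr PA the counts were 10 and 2, and 13 and 1. Insig1, the sterol sensor that holds the SREBP transcription factors in the ER, went from 135 ± 8.35 to 219.5 ± 32.4 CPM (log2 fold change 0.69 ± 0.09). Elovl6, which elongates palmitate to stearate, went from 39.1 ± 4.36 to 57.8 ± 7.53 CPM. Sqle, a rate-limiting enzyme of sterol synthesis, ran from 141 through 164 to 181 CPM in Ctr BSA and from 203 through 239 to 270.4 CPM in αGlu PA, with a clear gap between the groups (0.54 ± 0.04, adjusted p = 2.11e-09). The genes that fell were Fads3 (-1.05 ± 0.23), Abcg1, a cholesterol exporter (-0.20 ± 0.06), and Acly, which makes cytosolic acetyl-CoA (-0.17 ± 0.06, adjusted p = 0.0363). The call on Acly was lost when any of 5 libraries was left out (Ctr BSA S1 or S17, αGlu PA S8, S12 or S20), with adjusted p between 0.0583 and 0.107. The sterol response was larger in batch 2, where the list's median was 0.45 against 0.11 in batch 1.

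ER chaperones and degradation genes remained above the control level. Of 37 genes tested on a list of ER chaperones, ER-associated degradation and the unfolded protein response, 24 rose and none fell (median log2 fold change 0.23). In Ctr PA 22 rose and none fell, with a median of 0.21. Hspa5 encodes BiP, the main ER chaperone, and ran from 1471 through 1847 to 2030 CPM in Ctr BSA and from 1978 through 2442 to 2735 CPM in αGlu PA. The groups overlapped at their extremes, but within each batch the groups were apart, with log2 fold changes of 0.42 and 0.44 (0.43 ± 0.07 in all, adjusted p = 2.63e-05). Ern1, the ER stress sensor IRE1, went from 324 ± 54.0 to 447 ± 22.6 CPM, and Derl1, a channel component for degradation, from 152 ± 20.01 to 222 ± 32.3 CPM, neither with overlap. Xbp1, spliced by that sensor, and Eif2ak3, the PERK kinase, did not pass at the level of total mRNA, with log2 fold changes of 0.02 ± 0.05 and 0.02 ± 0.09. In Ctr PA Hspa5 stood at 2465 ± 264 CPM and in αGlu PA at 2438 ± 281 CPM.

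Several of these genes carry the ER stress element, CCAAT and CCACG separated by 9 bases, in the 250 bases before their start. The element was searched on both strands of the RefSeq promoters of GRCm38.p6. It was found in 37 of 32851 promoters (0.113%), in 19 of the 12091 tested genes that had a promoter (0.157%) and in 10 of the 33 list genes that had one. Of those 10 genes 7 rose, beside 24 of 37 on the whole list. The list genes Derl3 (adjusted p = 0.0575), Ero1b (0.284) and Syvn1 carry the element but did not pass. Of all 19 genes 9 rose and none fell, where 14.8% of all genes tested rose and 14.9% fell. Outside the list only Alg12 and Hnrnpa3 rose. The sites of 6 raised chaperone genes and of Syvn1, which did not pass, are shown because they share the motif while only the first 6 passed the test, with the motif in capitals and 5 flanking bases in lower case.
Hspa5 (chr2:34772020-34772048, + strand): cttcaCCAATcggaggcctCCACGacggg
Calr (chr8:84847070-84847098, + strand): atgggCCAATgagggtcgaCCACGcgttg
Hsp90b1 (chr10:86705528-86705556, + strand): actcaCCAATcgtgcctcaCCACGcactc
Pdia6 (chr12:17266486-17266514, + strand): agagaCCAATgaaaggcggCCACGgcgtg
Dnajc3 (chr14:118937822-118937850, + strand): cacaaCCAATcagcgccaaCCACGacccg
Creld2 (chr15:88819515-88819543, − strand): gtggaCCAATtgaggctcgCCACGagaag
Syvn1 (chr19:6046527-6046555, + strand): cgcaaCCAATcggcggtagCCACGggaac
The log2 fold changes were 0.43 ± 0.07 for Hspa5, 0.23 ± 0.05 for the lectin chaperone Calr, 0.32 ± 0.06 for Hsp90b1 (GRP94), 0.32 ± 0.07 for the disulfide isomerase Pdia6, 0.31 ± 0.05 for the co-chaperone Dnajc3 and 0.48 ± 0.10 for Creld2. Syvn1, a ubiquitin ligase of ER-associated degradation, had -0.08 ± 0.05 (adjusted p = 0.292). Creld2 shares its site with the neighbouring gene Alg12, and Hsp90b1 has a second site on the − strand (chr10:86705633-86705661). Without the batch term in the fit 5 genes of the list rose in place of 24, and Calr, Hsp90b1, Pdia6 and Dnajc3 lost their calls. A match of these letters is a description and does not show that a factor binds there.

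Genes of the integrated stress response also stayed above the control level. Of 31 genes of the ATF4 and CHOP branch 16 rose and 1 fell, with a median of 0.30, beside 17 and 3 and a median of 0.33 in Ctr PA. Ddit3, which encodes CHOP, had 63.7, 56.0, 62.8, 39.5, 45.2 and 36.2 CPM in Ctr BSA libraries S1, S5, S9, S13, S17 and S21. The αGlu PA libraries lay between 67.2 and 81.2 CPM with a median of 76.1, above every control library (log2 fold change 0.61 ± 0.13, adjusted p = 0.000794). The change was 0.28 in batch 1 and 0.93 in batch 2. In Ctr PA Ddit3 stood at 75.6 ± 14.8 CPM and in αGlu PA at 75.3 ± 4.76 CPM, a direct log2 difference of 0.004 ± 0.13. Trib3, a pseudokinase induced by CHOP, went from 49.8 ± 10.9 to 79.3 ± 3.85 CPM and Atf5 from 249 ± 24.9 to 358 ± 47.2 CPM, without overlap. Atf4 mRNA itself rose by 0.19 ± 0.05. With batch 1 fitted alone neither Ddit3 (0.27, adjusted p = 0.0907) nor Atf4 (0.07, adjusted p = 0.638) passed. Bbc3, the pro-apoptotic protein PUMA, was the 1 gene that fell (-0.31 ± 0.12, adjusted p = 0.0444), a call lost in 8 of the 12 omissions of 1 library (all but Ctr BSA S5, S9 and S21 and αGlu PA S16), with adjusted p up to 0.120. Without the batch term 8 genes of this branch rose and none fell. In batch 1 alone 5 rose and in batch 2 alone 16, with none fallen in either. Over all 15916 genes tested, 1011 rose in batch 1 alone and 1106 in batch 2 alone.

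Among 35 genes of the BCL2 family and p53 targets 5 rose and 13 fell, with a median of -0.16. Bcl2l1, which encodes the survival protein Bcl-XL, had 51.6 ± 11.2 CPM in Ctr BSA and 50.3 ± 7.93 in αGlu PA, and its 95% interval lay within 1.5-fold (log2 fold change -0.02 ± 0.08). The BH3-only genes Hrk, from 1.20 ± 0.52 to 2.78 ± 0.28 CPM, and Bid, from 6.39 ± 1.28 to 10.2 ± 1.00 CPM, rose without overlap. The survival gene Bcl2l2 rose too (0.47 ± 0.06). Mdm2, the ubiquitin ligase of p53, fell from 147 ± 19.5 to 118 ± 6.598 CPM. Bcl2 had a log2 fold change of -0.50 ± 0.20 that did not pass (adjusted p = 0.0633), but passed by DESeq2 (adjusted p = 0.0442) and without Ctr BSA S1 (0.0152), αGlu PA S8 (0.0172) or Ctr BSA S17 (0.0359).

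**Figure D2:**
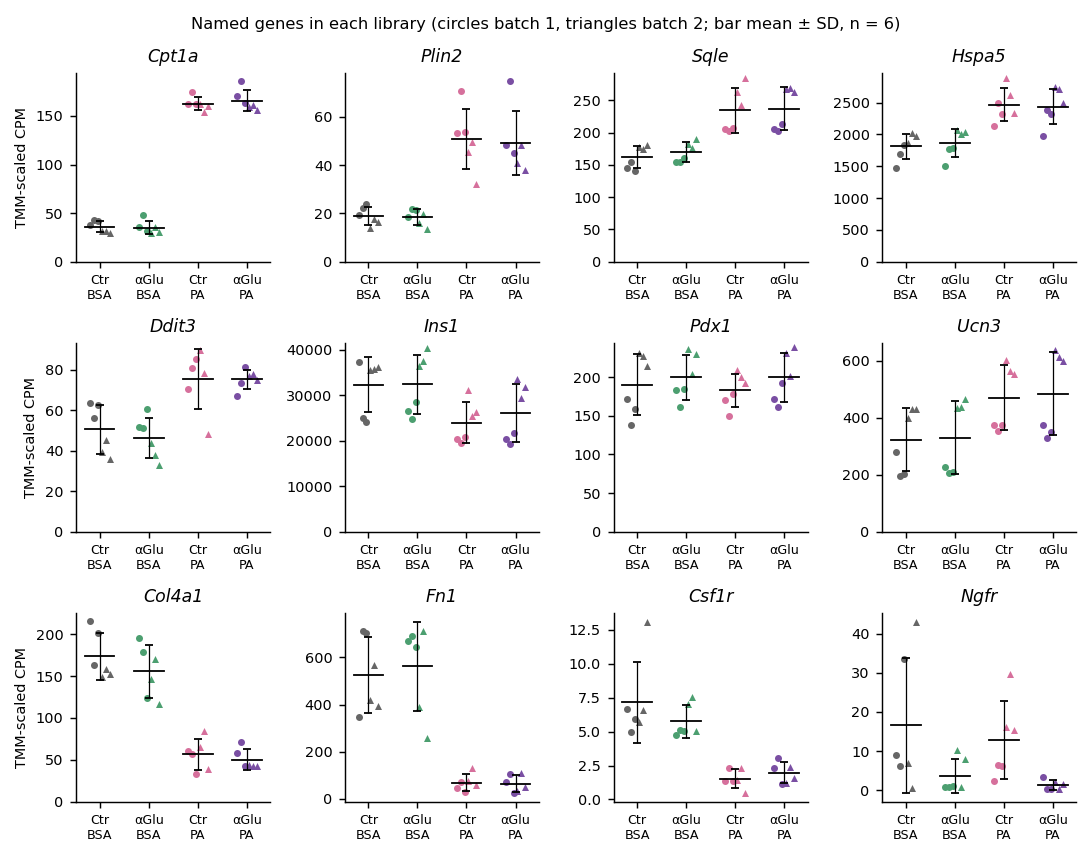
TMM-scaled CPM of 12 genes (y axis, linear, with 0 shown) in each library of the 4 groups (x axis), with circles for batch 1, triangles for batch 2, and bars for the mean ± SD of 6 libraries. Cpt1a, Plin2, Sqle and Ddit3 lie higher in αGlu PA than in any Ctr BSA library, Col4a1, Fn1 and Csf1r lie lower, and Pdx1 overlaps throughout. Ngfr is low in αGlu PA, with a highest value of 3.39 CPM, while Ctr BSA spreads from 0.735 to 43.0 CPM.

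The insulin and granule genes did not move as 1 group. Of 21 tested 7 rose and 2 fell, with a median of 0.11. Ins1 had from 24130 through 35630 to 37330 CPM in Ctr BSA and from 19150 through 25630 to 33620 CPM in αGlu PA. The ranges overlapped, and Ins1 fell (-0.34 ± 0.09, adjusted p = 0.00599). Its change was -0.50 in batch 1 against -0.18 in batch 2. Ins2 had -0.24 ± 0.10 and did not pass (adjusted p = 0.0572), though it did by DESeq2 (0.0173), with upper-quartile scaling (0.0485) and without Ctr BSA S5 (0.0371). Against Ctr BSA, Ctr PA had -0.44 for Ins1 and -0.34 for Ins2. Nnat, neuronatin, which assists processing of preproinsulin, ran from 31.0 through 38.1 to 43.9 CPM in Ctr BSA and from 13.8 through 16.7 to 20.5 CPM in αGlu PA. Every αGlu PA library was below every Ctr BSA library (-1.13 ± 0.13, adjusted p = 6.58e-07), and stood at 13.4 ± 2.18 CPM in Ctr PA. In contrast Vgf, a granule peptide precursor (0.77 ± 0.16), and Iapp, amylin (0.41 ± 0.10), rose. Without Ctr BSA S5 or S9 the counts became 4 risen and 4 fallen, and without the batch term 1 and 1.

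β-cell transcription factors were close to their control level. Of 23 tested, 22 had a 95% interval within 1.5-fold. Pdx1, a master regulator of β-cells, had 190.5 ± 39.2 and 199.9 ± 31.3 CPM (log2 fold change 0.08 ± 0.07), Neurod1 -0.06 ± 0.07 and Pax6 -0.05 ± 0.07, none past the test. Mafa, an activator of insulin transcription in mature β-cells, fell from 527 ± 121 to 438 ± 87.5 CPM (-0.27 ± 0.09, adjusted p = 0.0197), a call lost without Ctr BSA S1 (0.0615) or αGlu PA S20 (0.0516). Nkx2-2 (0.23 ± 0.07) and Bhlha15, a secretory-cell factor known as Mist1 (0.40 ± 0.06), rose. Without αGlu PA S24, 4 factors rose, and without αGlu PA S20 only 1 fell. In Ctr PA 3 of the list rose and 3 fell, with -0.41 for Mafa.

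On a list of glucose sensing, excitability and exocytosis genes 12 of 38 rose and 4 fell, and 33 intervals lay within 1.5-fold. The sulfonylurea receptor Abcc8 (log2 fold change 0.01 ± 0.07) and the glucose transporter Slc2a2 (0.05 ± 0.12) did not pass. Ucn3, a marker of mature β-cells, rose from 322 ± 111 to 485 ± 147 CPM (0.60 ± 0.08), with like changes of 0.64 and 0.56 in the batches, and Ffar1, the fatty-acid receptor that augments insulin release, rose by 0.38 ± 0.06. The genes that fell were Adcy5, Cplx1, the calcium channel gene Cacna1a (-0.35 ± 0.07) and Rapgef4, an exchange factor for cAMP signals (-0.24 ± 0.04). Adcy5, an adenylate cyclase used in glucose signalling, went from 2.52 ± 1.09 to 1.12 ± 0.31 CPM. Only 7 genes rose without αGlu PA S4, Ctr BSA S5 or Ctr BSA S9, and 7 fell without Ctr BSA S5, while 2 rose without the batch term. Of 26 genes that β-cells normally silence or that mark dedifferentiation 11 fell and 3 rose, with a median of -0.52. Ldha, lactate dehydrogenase, fell from 48.03 ± 19.4 to 17.8 ± 11.9 CPM and Sox9, of ducts and progenitors, from 8.35 ± 3.90 to 3.32 ± 1.72 CPM. Both are also expressed by the non-endocrine cells whose genes fell, and the part of those cells in the fall was not tested. Aldh1a3, a marker of failing β-cells, rose from 8.04 ± 2.91 to 17.97 ± 7.97 CPM (1.15 ± 0.21, adjusted p = 0.000192), and stood at 18.5 ± 8.58 CPM in Ctr PA. The other 2 that rose were Gc and Myc, and the call on Myc (0.44 ± 0.17, adjusted p = 0.0482) was lost in 9 of the 12 omissions of 1 library, all but αGlu PA S4, Ctr BSA S5 and Ctr BSA S9.

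For the other hormones, Gcg was at 15260 ± 4101 CPM in Ctr BSA and 15430 ± 4770 in αGlu PA, and did not pass (log2 fold change -0.01 ± 0.15). Sst, somatostatin, fell from 382 ± 108 to 253 ± 52.98 CPM (-0.59 ± 0.16). Ghrl, ghrelin, fell from 1.72 ± 1.31 to 0.381 ± 0.16 CPM without overlap. Gc, the vitamin D-binding protein of α-cells, rose from 87.6 ± 13.4 to 166 ± 23.95 CPM. Of 23 genes of α-, δ- and PP-cells 3 rose and 6 fell, and only 3 fell without αGlu PA S12. The list's median was -0.20, and -0.09 without Ctr BSA S1.

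Matrix genes were lowered across their lists. Of 46 genes of basement membranes, laminins and integrins 34 fell and none rose (median log2 fold change -0.99). Of 44 fibroblast, stellate cell and interstitial matrix genes 33 fell and none rose, with a median of -2.43. The corresponding values of Ctr PA were 30 fallen and 1 risen with -0.72, and 35 fallen and none risen with -2.07. Col4a3, a basement membrane collagen chain, ran from 8.44 through 12.3 to 24.4 CPM in Ctr BSA and from 0.801 through 1.35 to 1.74 CPM in αGlu PA, a 10.1-fold fall (-3.34 ± 0.29, adjusted p = 1.08e-08). Col4a1, a chain that all basement membranes hold, went from 174 ± 28.0 to 50.1 ± 12.2 CPM, without overlap. The shared integrin chain Itgb1 fell by less, from 355 ± 55.4 to 278 ± 35.4 CPM (-0.35 ± 0.09). Fn1, fibronectin, ran from 346 to 712 CPM in Ctr BSA (mean 523.5 ± 161) and from 24.9 to 111 CPM in αGlu PA (65.5 ± 36.6). No library of either group reached the other's range (-2.997 ± 0.37), nor did any for Acta2, smooth muscle actin (-3.40 ± 0.33), or Tagln, transgelin (-3.20 ± 0.30). Col3a1, a fibrillar collagen of fibroblasts, ran from 7.27 through 36.3 to 55.3 CPM in Ctr BSA but from 0.574 through 3.003 to 67.3 CPM in αGlu PA, the highest value in S8. It did not pass (-0.87 ± 1.01). The 2 αGlu PA libraries with the highest fibroblast scores were S8 at 3.35 and S4 at 2.84, and both lay below the lowest Ctr BSA score of 3.86. A score is the mean log2 CPM of a list's genes.

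Few endothelial genes passed the test. Of 26 tested 3 fell, namely Aqp1, Eng and Podxl, and none rose. The call on Aqp1, a water channel (-1.22 ± 0.40, adjusted p = 0.0225), was lost without αGlu PA S20, αGlu PA S24 or Ctr BSA S21, with adjusted p up to 0.0584. The list's median was -0.73, but 0.01 in batch 1 and -1.50 in batch 2, and -0.45 without Ctr BSA S21. None of the 26 fell in batch 1 fitted alone and 10 fell in batch 2 alone. Over all 15916 genes tested, 980 fell in batch 1 alone and 1189 in batch 2 alone. Cdh5, VE-cadherin and a defining endothelial gene, had 4.20 ± 2.23 CPM in Ctr BSA and 2.72 ± 1.89 in αGlu PA (adjusted p = 0.260), and passed in batch 2 alone (-1.63, adjusted p = 0.0201). Eng, endoglin, fell from 17.6 ± 7.92 to 8.09 ± 5.34 CPM.

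Macrophage genes were lower, and the size of the difference depended on single libraries and on the batch. Of 32 tested 10 fell and 1 rose, with a median of -1.26. Only 4 fell without Ctr BSA S21, which had the highest macrophage score (2.99), while 21 fell without αGlu PA S8, which had the highest score of its group (1.58), and 6 without αGlu PA S16, S20 or S24. The median was -0.56 without Ctr BSA S21 and -2.02 without αGlu PA S8. In batch 1 fitted alone 1 gene fell and 1 rose, with a median of -0.33, and in batch 2 alone 18 fell, with a median of -2.23. Those fits called 980 and 1189 of all 15916 genes lower. Csf1r, the receptor for macrophage survival signals, ran from 4.95 through 6.26 to 13.1 CPM in Ctr BSA and from 1.11 through 1.98 to 3.05 CPM in αGlu PA. The groups did not overlap (-1.85 ± 0.30, adjusted p = 4.96e-05). Lyz2, lysozyme, ran from 8.80 through 24.9 to 177 CPM and from 0.0359 through 4.27 to 18.99 CPM, with overlap (-2.64 ± 0.71). Apoe, secreted by macrophages, fell from 30.9 ± 13.7 to 9.24 ± 5.67 CPM. In batch 1 alone neither Lyz2 (adjusted p = 0.402) nor Apoe (0.125) passed. C1qa, a complement gene on the list, was at 84.3 ± 26.2 and 91.8 ± 22.2 CPM (0.14 ± 0.12, not past the test). In Ctr PA 18 fell and 1 rose, with a median of -2.01. αGlu BSA against Ctr BSA had 9 of the 32 genes lower at an unadjusted p below 0.05, where 1.76% of all genes were. None was higher at that level, the median was -0.85, and no gene passed an adjusted p. Of 5 MHC class II genes tested, 2 fell, H2-DMb1 and the invariant chain Cd74. The call on Cd74 (-1.26 ± 0.38, adjusted p = 0.0136) was lost without Ctr BSA S21 (-0.53, adjusted p = 0.0944), and 1 gene then fell. It also did not pass in batch 1 alone (adjusted p = 0.630). The median of the 5 genes was -0.16 in batch 1 alone and -2.01 in batch 2 alone, with 0 and 2 fallen. In αGlu BSA against Ctr BSA 2 of the 5 were lower at an unadjusted p below 0.05 (median -0.54).

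Chemokine and NF-κB genes moved mostly downward, with 12 of 38 fallen and 2 risen, Cx3cl1 and Tlr2, and a median of -0.31. The call on Tlr2, a receptor for bacterial lipoproteins (0.25 ± 0.08, adjusted p = 0.026), was lost without αGlu PA S4 or S20 or Ctr BSA S9 or S13. Icam1, a leukocyte adhesion molecule, went from 18.3 ± 4.801 to 4.49 ± 2.08 CPM and Csf1, the ligand of Csf1r, from 138 ± 52.0 to 42.4 ± 8.19 CPM, both without overlap. In Ctr PA 12 fell and 1 rose. MHC class I genes went the other way. Of 20 tested 8 rose and none fell (median 0.23), beside 6 and 1 in Ctr PA. H2-K1 went from 427 ± 60.4 to 577 ± 71.9 CPM (0.43 ± 0.09) and H2-D1 from 272 ± 45.1 to 385 ± 49.3 CPM (0.50 ± 0.11). Both are class I heavy chains that present peptides to T cells, and near-identical class I genes can share reads.

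Interferon-stimulated genes were mixed. Of 69 tested 10 rose and 3 fell (Ifit2, Irf1 and Trim21), with a median of 0.04, near that of all genes. The risen share is close to the 14.8% over all genes tested. Without αGlu PA S4 only 6 rose and the median was -0.06. Against the same controls Ctr PA had 5 risen and 13 fallen with a median of -0.22. Lgals3bp, a secreted interferon-induced glycoprotein, rose from 780 ± 155 to 1231 ± 191 CPM (0.66 ± 0.13), and Trim25, a ligase of antiviral RNA sensing, from 93.7 ± 4.03 to 124 ± 10.3 CPM without overlap. Irf7, the master regulator of type I interferon genes, had 5.12 ± 3.56 CPM in αGlu PA and 3.49 ± 1.28 in the controls, beside 8.63 ± 4.85 with the αGlu ASO alone and 2.49 ± 0.75 with palmitate alone. Against Ctr BSA it did not pass in αGlu PA (0.50 ± 0.27, adjusted p = 0.168), but did without αGlu PA S12 (0.67, adjusted p = 0.0312). In αGlu BSA against Ctr BSA 40 of the 69 genes were higher at an unadjusted p below 0.05, where 1.14% of all genes were, and none passed an adjusted p.

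Glial genes were low in αGlu PA. Of 45 Schwann cell and enteric glia genes 32 fell and 2 rose (Ret and Ncam1, which β-cells express too), with a median of -2.58, while in Ctr PA 5 fell and 3 rose with a median of -0.52. The difference between αGlu PA and Ctr PA is given with their direct comparison further on. Part of this list comes from genes the study picked on these libraries, so its direction is no independent evidence. Of the 28 genes that the study does not name 15 fell and 2 rose (median -0.60), beside 5 and 3 in Ctr PA (-0.18). In αGlu BSA against Ctr BSA 24 of the 45 genes were lower at an unadjusted p below 0.05, where 1.76% of all genes were, and again none passed an adjusted p. Of the 28 genes that the study does not name 9 were lower at that level (median -0.24). Ctr BSA S9 and S21 enter this comparison too, and it was not refitted without them. Ngfr, the low-affinity neurotrophin receptor, had 9.08, 6.27, 33.4, 6.95, 0.735 and 43.0 CPM in Ctr BSA libraries S1, S5, S9, S13, S17 and S21. αGlu PA libraries S4, S8, S12, S16, S20 and S24 had 3.39, 0.425, 0.251, 2.06, 0.42 and 1.69 CPM. Ctr BSA was high in S9 and S21 and low in S17, so that the groups overlapped (-3.62 ± 0.80, adjusted p = 0.00124). In the side groups Ngfr had 12.8 ± 9.97 CPM in Ctr PA and 3.69 ± 4.30 in αGlu BSA. Sox10, the transcription factor that defines the glial lineage, went from 4.06 ± 4.38 to 0.296 ± 0.32 CPM, and Gfap, the glial filament, from 1.13 ± 1.31 to 0.037 ± 0.07 CPM. Pde2a, a cyclic nucleotide phosphodiesterase, ran from 2.71 through 6.17 to 17.7 CPM in Ctr BSA and from 0 through 0.724 to 2.32 CPM in αGlu PA, without overlap (-3.51 ± 0.51). Hand2, a neural crest factor, did not overlap either (-3.26 ± 0.52). Mbp, which myelinating cells share with other cells, was at 124 ± 7.89 and 119 ± 5.48 CPM and did not pass. Without both Ctr BSA S9 and S21, the libraries with the highest glia scores (3.08 and 3.29), 21 genes of the list fell with a median of -1.39, and 7 of the 28 that the study does not name. With S9 alone left out 27 fell, with a median of -1.70.

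**Figure D3:**
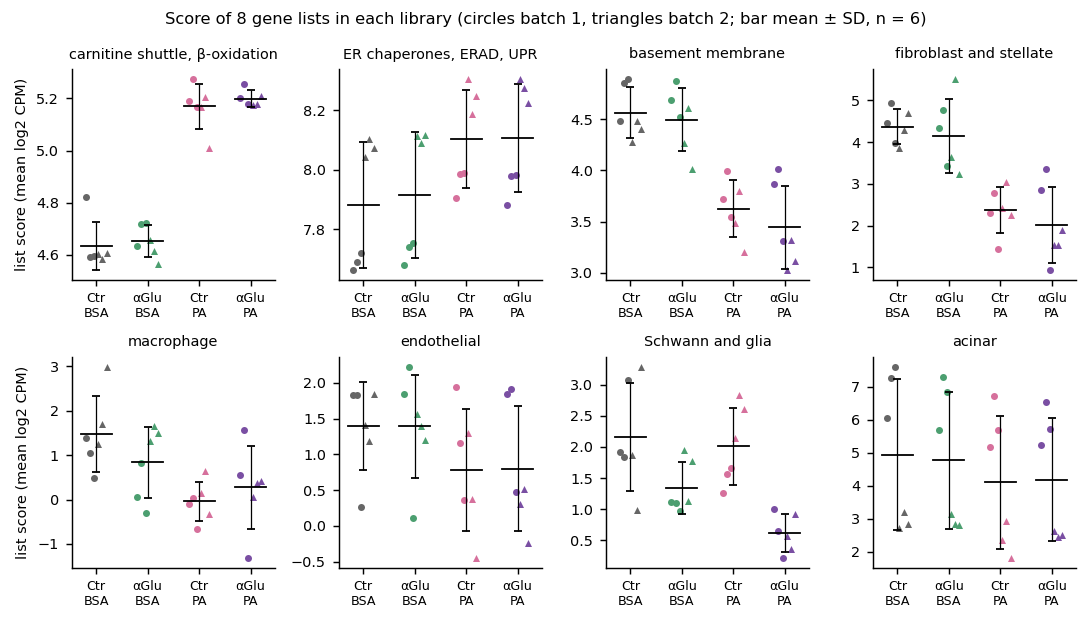
Score of 8 gene lists, the mean log2 CPM of the list's genes (y axis), in each library of the 4 groups (x axis), with circles for batch 1, triangles for batch 2, and bars for the mean ± SD of 6 libraries. The β-oxidation score is 4.63 ± 0.09 in Ctr BSA and 5.20 ± 0.03 in αGlu PA, the fibroblast score 4.37 ± 0.42 and 2.02 ± 0.91, and neither overlaps. The glia score of αGlu PA (0.621 ± 0.31) is below that of Ctr PA (2.01 ± 0.62). Part of the glia list comes from genes the study picked on these libraries. For the 28 glial genes that it does not name, the scores are 1.90 ± 0.19 in αGlu PA and 2.63 ± 0.40 in Ctr PA.

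Exocrine genes differed widely between libraries. The acinar score ran from 2.72 to 7.60 in Ctr BSA and from 2.44 to 6.55 in αGlu PA, and in both groups every batch 1 library was above every batch 2 library. Of 36 acinar genes 17 fell and 1 rose, Bhlha15, with a median of -0.99 (-1.29 in batch 1 and -0.46 in batch 2), and 11 fell without Ctr BSA S9. Without the batch term none of the 36 passed. Cel, a pancreatic lipase, ran from 18.1 through 182 to 1493 CPM in Ctr BSA and from 9.06 through 70.1 to 311 CPM in αGlu PA (-1.53 ± 0.33). Of 32 ductal genes 9 fell and 2 rose (Pigr and Cldn7), and 14 fell without Ctr BSA S1. The call on Cldn7, a claudin (0.24 ± 0.08), was lost without Ctr BSA S1 (adjusted p = 0.0509) or S21 (0.0585). Anxa1, an annexin of ducts and stroma, fell from 41.1 ± 14.1 to 8.27 ± 2.68 CPM without overlap.

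Of 38 glycolysis and glucose transport genes 8 rose and 4 fell. Fbp2, a fructose bisphosphatase, ran from 0.53 through 0.89 to 1.32 CPM in Ctr BSA and from 4.73 through 6.44 to 8.95 CPM in αGlu PA, a 7.30-fold rise without overlap (2.87 ± 0.25, adjusted p = 1.01e-08). None of the 13 mitochondrially encoded protein genes passed, and all 13 intervals lay within 1.5-fold, with mt-Co1 at 0.03 ± 0.10. In Ctr PA 4 of the 13 rose and none fell, with a median of 0.30 beside 0.07 in αGlu PA. The score of this list was 11.69 in Ctr PA S23, and 10.39 to 10.66 in the other Ctr PA libraries. Among 39 NRF2 targets 8 rose and 3 fell. Of 40 cell-cycle genes 4 rose, E2f1 with Cdk4, Ccnd1 and Ccnd2, and 2 fell, Cdk6 and Cdc6. Both shares are below those over all genes tested (14.8% risen and 14.9% fallen). The call on Ccnd2 (0.19 ± 0.07, adjusted p = 0.0472) was lost in 9 of the 12 omissions of 1 library, all but αGlu PA S16 and S20 and Ctr BSA S21. E2f1, which opens S phase, went from 10.4 ± 3.68 to 17.9 ± 4.30 CPM. Of 26 immediate early genes 8 fell and Myc rose, with the lost calls given above, and the median was -0.29 (-0.18 without αGlu PA S12). Nr4a1, an orphan receptor induced by depolarization, fell from 27.9 ± 7.77 to 15.1 ± 3.42 CPM and Fos from 17.7 ± 3.17 to 10.9 ± 3.28 CPM.

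On a list of tRF biogenesis and binding genes 4 of 28 rose and 4 fell, with a median of 0.01. These shares are close to the 14.8% risen and 14.9% fallen over all genes tested. Ang, the ribonuclease angiogenin that cuts tRNAs, ran from 12.2 through 22.4 to 26.6 CPM in Ctr BSA and from 30.6 through 38.9 to 44.0 CPM in αGlu PA. The groups did not overlap (0.83 ± 0.13, adjusted p = 4.53e-05), and Ang was at 35.4 ± 3.76 CPM in Ctr PA. Hnrnpa3, an RNA-binding protein, went from 259 ± 35.6 to 337 ± 24.1 CPM, also without overlap (0.39 ± 0.06). Dnmt1, a methyltransferase, fell (-0.24 ± 0.05), with Alkbh1, Dicer1 and Drosha. Only 2 fell without Ctr BSA S5 or αGlu PA S8, when Dicer1 and Drosha lost their calls, as one or the other also did without Ctr BSA S9, S13, S17 or S21 or αGlu PA S4, S16 or S20.

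By the rule of smallest p with more than 2-fold change, the leading raised genes were Aldh9a1, Cpt1a, Rassf2, Pxmp4, Slc25a20, Acat1, Dcaf12l1, Hpgds, Klf11 and Acaa2. Aldh9a1, an enzyme of carnitine synthesis, ran from 39.3 through 46.8 to 57.4 CPM in Ctr BSA and from 107 through 130.1 to 154 CPM in αGlu PA, with the smallest p of all genes (1.44 ± 0.05, adjusted p = 5.76e-16). Acat1, of ketone body breakdown, went from 57.5 ± 12.1 to 123 ± 22.2 CPM, Hpgds, a prostaglandin D synthase, from 53.4 ± 18.2 to 133 ± 19.9 CPM, and Klf11, a transcription factor of β-cells, from 18.9 ± 5.67 to 39.1 ± 6.84 CPM. Rassf2, a RAS-association protein, had a log2 fold change of 1.32 ± 0.07 and Dcaf12l1 1.14 ± 0.08. The leading lowered genes were Gm49394, Ehd2, Akap5, Tgfb1i1, Ccn2, Col4a3, Mcam, Tagln, Acta2 and Tns1. Ehd2, a protein of caveolae, went from 23.5 ± 4.40 to 5.94 ± 1.79 CPM, Ccn2, a matricellular growth factor, from 286 ± 83.2 to 51.2 ± 17.2 CPM, and Mcam, a pericyte and endothelial adhesion molecule, from 62.3 ± 20.8 to 8.53 ± 3.10 CPM. The log2 fold changes of Tns1, a focal adhesion protein, and Akap5, a kinase anchor, were both -2.45, and that of Tgfb1i1, also known as Hic-5, was -1.78.

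**Figure D4:**
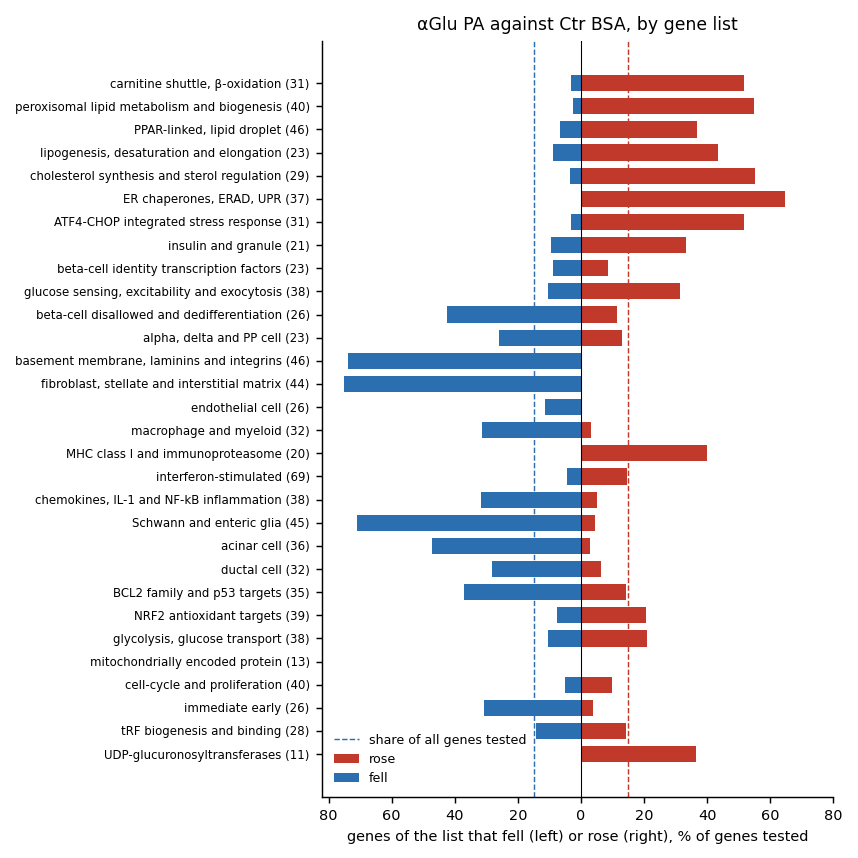
Share of each list's tested genes that rose (red, right) or fell (blue, left) in αGlu PA against Ctr BSA, in percent, with the number of genes tested in parentheses. Dashed lines mark the shares over all genes tested, 14.8% higher and 14.9% lower. The fatty-acid, sterol and ER lists pass them on the right and the matrix, fibroblast and glia lists on the left. Other lists pass them too, such as the ATF4 and MHC class I lists on the right and the acinar and chemokine lists on the left.

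The direction of the called genes mostly held from batch to batch. Of 1011 genes that rose when batch 1 was fitted alone, 990 (97.9%) were also higher in batch 2, and of 980 that fell 961 (98.1%) were also lower. In the reverse direction, 1032 of 1106 risen genes (93.3%) and 1146 of 1189 fallen genes (96.4%) of batch 2 had the same sign in batch 1. Both batch fits called 525 genes higher and 546 lower, and no gene was called in opposite directions. The batches used separate libraries. Over all genes tested, 50.3% were higher and 49.7% lower in batch 2, and 49.8% and 50.2% in batch 1. Between the batches, the log2 fold changes of all 15916 genes had a Pearson correlation of 0.637. A test of the difference between the batches passed 1 gene, Fdps, which makes farnesyl diphosphate on the way to cholesterol. Fdps ran from 73.0 through 83.3 to 95.1 CPM in Ctr BSA and from 113 through 145 to 173 CPM in αGlu PA, without overlap, with a log2 fold change of 0.35 in batch 1 and 1.16 in batch 2 (difference 0.81, adjusted p = 0.0029).

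Set directly against Ctr PA, αGlu PA passed no gene at an adjusted p below 0.05 in edgeR. At an unadjusted p below 0.05, 163 genes were higher (1.02%) and 375 lower (2.36%), and DESeq2 passed 30. A single gene passed in edgeR without Ctr PA S3, Ctr PA S15 or αGlu PA S4. Of the 45 glial genes 27 were lower at an unadjusted p below 0.05 (median -2.02), and of the 28 that the study does not name 10 were lower (median -0.30). The direct log2 difference was -3.02 ± 0.51 for Pde2a and -2.90 ± 0.80 for Ngfr. Itga1, an integrin chain of collagen receptors (-1.16 ± 0.21), and Lims2, a focal adhesion adaptor (-1.04 ± 0.22), were also lower at that level, and both were below Ctr BSA without overlap. Higher at that level were Irf7 (0.95 ± 0.27) and Sema4d, a semaphorin, which stood at 34.0 ± 1.92 CPM in Ctr BSA, 29.7 ± 1.35 in Ctr PA and 33.3 ± 2.06 in αGlu PA. Of 46 basement membrane genes 7 were lower and none higher at that level (median -0.08). Of 44 fibroblast genes 6 were lower and 1 higher (median -0.17). Among the interferon-stimulated genes 18 of 69 were higher and none lower. For the macrophage list the median was 0.54, with 4 of 32 genes higher at that level. The macrophage scores ran from -1.32 to 1.58 in αGlu PA and from -0.657 to 0.647 in Ctr PA. Only αGlu PA S8 lay above the Ctr PA range, and S12 lay below it. For β-oxidation, ER chaperone and ATF4 genes the medians were 0.02, -0.008 and 0.003. None of their genes was higher at that level and 1 ER gene was lower. The same 6 αGlu PA libraries enter these values and those against Ctr BSA, so the sets of values are not independent. Ngfr is a gene the study names, and Pde2a, Itga1, Lims2, Irf7 and Sema4d were taken for their small p in this comparison. Their differences are those of selected genes, and are no independent evidence.

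**Figure D5:**
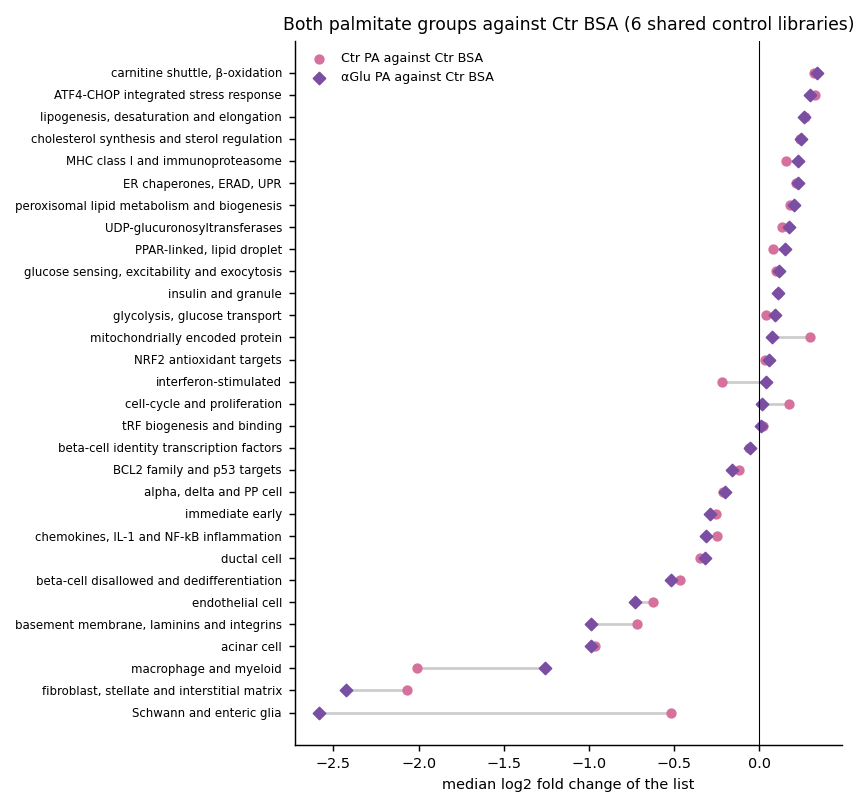
Median log2 fold change (x axis) of each gene list in αGlu PA (diamonds) and Ctr PA (circles), both against the same 6 Ctr BSA libraries. Most pairs lie close together, such as 0.34 and 0.32 for β-oxidation. The glia (-2.58 and -0.52), macrophage (-1.26 and -2.01) and fibroblast lists (-2.43 and -2.07) lie further apart. So do the basement membrane (-0.99 and -0.72), interferon (0.04 and -0.22) and mitochondrially encoded lists (0.07 and 0.30). Part of the glia list comes from genes the study picked on these libraries. The 28 glial genes that it does not name have -0.60 and -0.18. The macrophage value of αGlu PA depends on single libraries.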

How the data were processed

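mRNA of 24 mouse islet cell cultures was sequenced with a stranded kit. The authors used version 5.1 of the QIAGEN RNA-seq Analysis Portal to annotate and count reads, and the deposited table gives the count of reads on exons for 41549 genes. The submitters' processing notes name GRCm38. Which aligner, annotation release and filters were used is not given in the sources used here, and no method stated elsewhere was assumed. Raw counts were used, with empty cells read as 0 (the table writes no 0), and the deposited RPKM, TPM and CPM columns were not used. The table lists Ddit3 in more than 1 entry, and only the entry with reads was used. No count was seen for 16206 genes. The 15916 genes that passed filterByExpr (minimum count 10) held 99.95% of the counts. Library totals over all groups ran from 18214719 to 35001979. Reads had no molecular identifiers, so counting error understates the spread.

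All 24 libraries were scaled by TMM and fitted in edgeR 4.0.16 (R 4.3.3, limma 3.58.1) by quasi-likelihood with terms for group and batch. The biological coefficient of variation was 15.4%. Standard errors were derived from the F statistic, and list scores used log2 CPM with a prior of 2. On simulated data for αGlu PA against Ctr BSA over 15916 genes, 92% of 4-fold and 72% of 2-fold changes passed, and 5 unaltered genes passed. The simulated counts held no batch effect and only 100 altered genes at each fold, so these shares need not hold for the real libraries. Lists are described by counts and medians without a test. Their members were drawn by hand from textbook knowledge and the study. The comparison, the members and the lists were chosen with earlier results of these data known.

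Genes were named as the 10 of smallest p in each direction over 2-fold, raised or lowered alike in each batch and averaging 10 counts or more, the leading members of each list, genes the study names, and the leading genes of the comparison with Ctr PA and of the batch difference. Some defining markers and single exceptions of a list were added after their values were seen, and not every gene taken is printed. Alternatives were DESeq2 1.42.0, upper-quartile scaling, counts left unfiltered or filtered more strictly, leaving out the batch term, fitting only the 12 compared libraries, fitting each batch by itself and omitting each library. Omission of Ctr BSA S9 with S21 was chosen after seeing the data. ER stress elements were searched in RefSeq promoters of GRCm38.p6. Results that need certain withheld items are not reported here.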

Additional observations from a re-analysis of the deposited data

Results flagged for a closer look

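Single libraries that stood apart from the other 5 of their group, by Dixon's test at the 95% level, were found in 18 of 372 groups of 6 (genes and list scores), where chance gives about 1 in 20. αGlu PA S8 was high for Acaa2 (32.7 CPM, the others 22.2 to 24.3), Plin2 (75, others 38.2 to 48.4), Fabp5 (9.96, others 3.12 to 5.28), Col3a1 (67.3, others 0.574 to 23.4), Lyz2 (19, others 0.0359 to 5.44) and Fos (17.3, others 8.10 to 10.7), and low for Rapgef4 (134, others 151 to 159). αGlu PA S4 was high for Aqp1 (1.83, others 0.403 to 0.888). Ctr BSA S21 was high for Csf1r (13.1 CPM, others 4.95 to 6.64), Lyz2 (177, others 8.80 to 44.0), Cd74 (12.8, others 1.45 to 3.22) and the MHC class II score (2.33, others 0.447 to 1.08). Ctr BSA S9 was high for Adcy5 (4.63 CPM, others 1.47 to 2.51) and Col4a3 (24.4, others 8.44 to 13.9). Ctr BSA S5 was high for Anxa1 (68.2 CPM, others 28.0 to 40.8). Ctr BSA S17 was low for Acadm (13.8 CPM, others 18.6 to 19.9). Ctr BSA S1 was low for Hnrnpa3 (191 CPM, others 254 to 290.0) and high for the β-oxidation score (4.82, others 4.59 to 4.61).

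The response of Fdps differed between the batches by 0.81 on the log2 scale (0.35 in batch 1, 1.16 in batch 2, edgeR adjusted p = 0.0029). Among other genes of the same biosynthetic branch and of desaturation, the log2 fold change of Scd2 was -0.21 in batch 1 and 0.74 in batch 2, and that of Fads2 -0.29 and 0.72, and neither difference passed an adjusted p of 0.05.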

How the results depend on the processing

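The count of 4724 genes moved by over 1.5 times without the batch term (2339), in batch 1 alone (1991) and in batch 2 alone (2295). With each library left out it ran from 4130 to 5110, and it was 3757 without Ctr BSA S9 and S21 together. The 5110 came without Ctr BSA S1, which had the lowest total (18214719 counts). Between pairs of Ctr BSA libraries, the mean chi-square per gene of the count differences was 216 to 380 with S1. It was at most 201 between the others. The 1051 genes past 2-fold at an unadjusted p became 1770 without the filter on low counts, and 981 to 1173 with a library left out. Against Ctr PA, 0 genes became 30 by DESeq2, 3 without the filter, 6 with only the 12 compared libraries, 6 in batch 2 alone, and 0 to 1 with a library left out. The batch difference passed 5 genes by DESeq2 in place of 1. Of 152 named genes, 2 gained a call by DESeq2, 29 lost theirs without the batch term, 43 in batch 1 alone and 30 in batch 2 alone, where 3 gained one, and 2 to 7 lost theirs with a library left out. No called gene changed its direction under any of these. Without the batch term, the risen genes numbered 10 in place of 16 for cholesterol, 5 in place of 10 for lipogenesis, 3 in place of 8 for NRF2 targets, 4 in place of 8 for MHC class I, 6 in place of 10 for interferon and 2 in place of 4 for the cell cycle. The fallen genes numbered 6 in place of 10 for macrophages, 1 in place of 3 for endothelium, 3 in place of 13 for the BCL2 and p53 list, 5 in place of 12 for chemokines, 6 in place of 11 for disallowed genes, 4 in place of 9 for ducts, 2 in place of 6 for α-, δ- and PP-cells, 4 in place of 8 for immediate early genes, and 2 in place of 4 for both the glycolysis and the tRF list. None of the β-cell transcription factors then passed. The causes were not tested, except that the batch fits hold fewer libraries. No paired analysis was run, because the groups share no replicate numbers in the labels. The labels do not tie libraries to islet preparations, although the study states that the groups of 1 replicate shared an animal or a passage, and every fit left such sharing out. Glial values spread widely between Ctr BSA libraries, high in S9 and S21 and low in S17.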

Other observations

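In batch 1, libraries S9 to S12, 1 of each group, had endothelial scores of 0.262 (Ctr BSA), 0.104 (αGlu BSA), 0.359 (Ctr PA) and 0.478 (αGlu PA), while S1 to S8 had scores between 1.16 and 2.22. The labels do not say whether libraries with neighbouring numbers share an islet preparation, and a link was not tested.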
